A study of Mus musculus with 12 samples.

Results

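The chemokine genes were examined in RNA from mouse intestinal crypts and from monolayers grown from such crypts. A gene was taken as a member when its mouse symbol is Ccl, Cxcl, Cx3cl or Xcl followed by a number and at most 1 letter, and Ccl5 was left out. This gave 37 of the 55487 genes in the tables, of which 22 are CC chemokines and 13 are CXC chemokines, with Cx3cl1 and Xcl1 beside them. At least 1 read count was found for 33 members, 24 passed the filter on low counts and were tested, and 20 reached a mean of 1 CPM (read counts scaled to a common library total) in at least 1 group.

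Each of the 4 groups held 3 libraries, all from C57BL/6 mice, which the methods describe as male or female and 6 to 10 weeks old. SI tissue and LI tissue were crypts isolated from the small and the large intestine, with 1 mouse per library. SI monolayers and LI monolayers were crypt cells kept on Matrigel for 24 h in control media, with pooled wells per library. Per the methods, jejunum and large intestine for such cultures came from the same mice. The methods give a medium with the ROCK inhibitor Y-27632, CHIR-99021, LDN-193189, EGF, R-spondin-1 and Wnt3a for seeding, and then one with Wnt3a, EGF, Noggin and R-spondin-1. SI crypts for the monolayers came from the jejunum and were released with EDTA, whereas LI crypts were digested with Collagenase D, Dispase and DNase before EDTA. Region and isolation method therefore cannot be told apart. In bulk RNA, fewer cells of a type and less RNA per cell cannot be told apart either.

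Chemokines are small secreted or membrane-anchored proteins that draw leukocytes along a gradient by way of G protein-coupled receptors. In the gut, CCL25 and CCL28 from the epithelium are known for guiding lymphocytes that carry CCR9 or CCR10, CCL20 for drawing CCR6-bearing cells to lymphoid follicles, and the CXCR2 ligands CXCL1, CXCL2, CXCL3 and CXCL5 for drawing neutrophils. Many chemokine genes lie in clusters of related copies and are switched on by NF-kB downstream of TNF, IL-1 or microbial products, or by interferon.

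The CXCR2 ligand genes Cxcl5, Cxcl3, Cxcl15, Cxcl1 and Cxcl2 lie together on the plus strand of chromosome 5 (chr5:90759360-90905938, GRCm38). The interferon-linked genes Cxcl9, Cxcl10 and Cxcl11 lie on the minus strand of the same chromosome (chr5:92321347-92365485). The bases just before the transcription start are shown for 5 of the 6 members with a match to the NF-kB binding consensus (kappaB). Cxcl1, Cxcl2 and Cxcl3 were among the genes that rose together in LI monolayers. The match of Ccl9, a gene that fell in the monolayers of both regions, is not shown. The sequences are RefSeq promoters of GRCm38.p6, written 5′ to 3′ on the strand of the gene and ending before the first base that RefSeq or the gene annotation puts in the transcript. Capitals mark the kappaB match and, in Cxcl10, also the interferon-stimulated response element (GAAA, any 2 bases, GAAA). They are Cxcl1 (chr5:90891131-90891240, plus strand), Cxcl2 (chr5:90903761-90903870, plus), Cxcl3 (chr5:90785991-90786100, plus), Ccl20 (chr1:83116656-83116765, plus) and Cxcl10 (chr5:92348890-92349109, minus).
Cxcl1: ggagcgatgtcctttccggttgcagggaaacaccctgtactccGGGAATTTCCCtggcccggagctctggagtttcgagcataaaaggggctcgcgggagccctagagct
Cxcl2: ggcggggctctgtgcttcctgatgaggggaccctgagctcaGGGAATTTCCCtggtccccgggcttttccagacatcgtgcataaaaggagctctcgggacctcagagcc
Cxcl3: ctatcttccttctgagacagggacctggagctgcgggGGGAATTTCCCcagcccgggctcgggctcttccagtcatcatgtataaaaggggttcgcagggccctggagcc
Ccl20: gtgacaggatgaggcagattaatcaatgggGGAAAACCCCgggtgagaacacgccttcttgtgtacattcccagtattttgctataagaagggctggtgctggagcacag
Cxcl10: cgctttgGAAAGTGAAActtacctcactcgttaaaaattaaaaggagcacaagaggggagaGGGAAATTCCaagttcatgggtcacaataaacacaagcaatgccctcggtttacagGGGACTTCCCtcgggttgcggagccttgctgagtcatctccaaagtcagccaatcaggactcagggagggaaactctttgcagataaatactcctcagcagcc

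Cxcl1, Cxcl2 and Cxcl3 carry the same letters in this match, GGGAATTTCC, which is read by the consensus on both strands with an overlap. These printed stretches were 69.7% identical between Cxcl1 and Cxcl2, 63.4% between Cxcl1 and Cxcl3 and 66.9% between Cxcl2 and Cxcl3 after global alignment. In the 250 bases before the start, on both strands, the kappaB consensus occurred in 3.90% of 32851 RefSeq promoters and in 6 of the 27 members with a promoter, namely Ccl9, Ccl20, Cxcl1, Cxcl2, Cxcl3 and Cxcl10. The 27 members had 33 promoters in all, so that the first share is per promoter and the second per gene. The interferon-stimulated response element occurred in 2.98% of all promoters and in Ccl19, Cxcl10 and Cxcl14, and the AP-1 letters TGANTCA in 6.75% of all and in Ccl9, Ccl27a, Ccl27b and Cxcl10. A match is a match of letters only. The members with no promoter entry were Ccl2, Ccl4, Ccl7, Ccl11, Ccl24, Ccl26, Cxcl5, Cxcl11, Cxcl16 and Cxcl17.

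Library totals lay between 59016196 and 76216530 counts, and 3 counts, taken as the limit of detection, were 0.0394 to 0.0508 CPM. Intervals and limits cover counting error only. Epithelial markers were high in every library, with Krt8 at 320748 to 969529 and Epcam at 81695 to 133955 normalized counts. Lymphocyte markers were present in tissue and fell in monolayers, with 12 of 12 called lower in both regions; their summed level went from 10663–15925 to 707–812 for SI, and was 2286–2942 in LI tissue against 166–274 in LI monolayers. Of 12 mesenchymal markers, none of which was at 0 in any group, 3 were called lower and 0 higher in SI monolayers, and 5 lower and 2 higher in LI monolayers. Among neutrophil markers, Ly6g had 88.0 to 253 normalized counts in SI and 5405 to 11711 in LI, and the neutrophil genes S100a8, Retnlg, Mpo and Elane had no count in either kind of monolayer. Mpo and Elane had no count in tissue either, and S100a8 had only 2 counts in SI tissue and 24 in LI tissue, too few to show a change. LI tissue replicate 1 stood apart in smooth muscle genes (Myh11 at 676 against 47.6 and 19.6 normalized counts), and SI tissue libraries differed in the summed level of Paneth cell markers (340187, 649533 and 1635737).

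In what follows, the value of a library is the authors' normalized count, which is the count divided by a size factor, and a mean is given ± SD over n = 3. Fold changes and adjusted p-values are from edgeR's quasi-likelihood test on the counts, adjusted over 19581 genes by the Benjamini-Hochberg method. The test gives no standard error (SE). It was approximated as the size of the log2 fold change divided by the square root of the test's F statistic. A gene was called where the adjusted p-value was below 0.05 and the log2 fold change 1 or more in size. With 3 mice or 3 pools of wells per group, the p-values measure the spread between those libraries, which in monolayers may be technical.

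The set of chemokine genes in use differed between all 4 groups. Levels were set per kb of exon, with the union of all annotated exons of a gene as its length, whichever transcript was in use. On this scale Ccl6 and Ccl25 led in SI tissue and Ccl6 and Ccl28 in LI tissue, whereas Cxcl16 led in both kinds of monolayer. The order depends on these lengths. Ccl25 (7445 bases) had more normalized counts than Cxcl16 (3021 bases) in SI monolayers, with means of 13759 against 10495. It also had more than Ccl6 (1795 bases) in SI tissue, with 38168 against 12032. In SI tissue, Ccl6 held 39.7% ± 11.4 and Ccl25 32.5% ± 8.80 of the summed level of all members per kb, followed by Cx3cl1 with 12.4% ± 3.48. Per kb, the first pair could not be put in an order, since Ccl25 led in replicate 1 (40.9% against 29.0%) and Ccl6 in replicate 3 (51.8% against 23.3%). In LI tissue, Ccl6 held 74.8% ± 1.94, Ccl28 12.3% ± 1.96 and Cx3cl1 5.41% ± 0.851, and these ranks kept clear of each other. In SI monolayers the shares were 34.4% ± 0.786 for Cxcl16, 28.3% ± 1.31 for Ccl6, 18.3% ± 0.0706 for Ccl25 and 12.4% ± 0.542 for Cx3cl1. In LI monolayers Cxcl16 held 58.8% ± 0.544, followed by Cxcl5 with 13.2% ± 0.344, Cx3cl1 with 7.97% ± 0.385 and Ccl6 with 6.22% ± 0.227. All members together took 889 to 1041 CPM in SI tissue and 745 to 769.5 in LI tissue, and fewer in monolayers, with 557 to 567 in SI and 484 to 497 in LI. The mitochondrial share of all counts moved with the same groups, at 9.16%, 5.92% and 4.56% in SI tissue replicates 1, 2 and 3, 2.25% to 2.59% in LI tissue and 0.472% to 0.750% in monolayers, and its part in these levels and in the order of Ccl6 and Ccl25 within SI tissue was not tested.

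**Figure D1:**
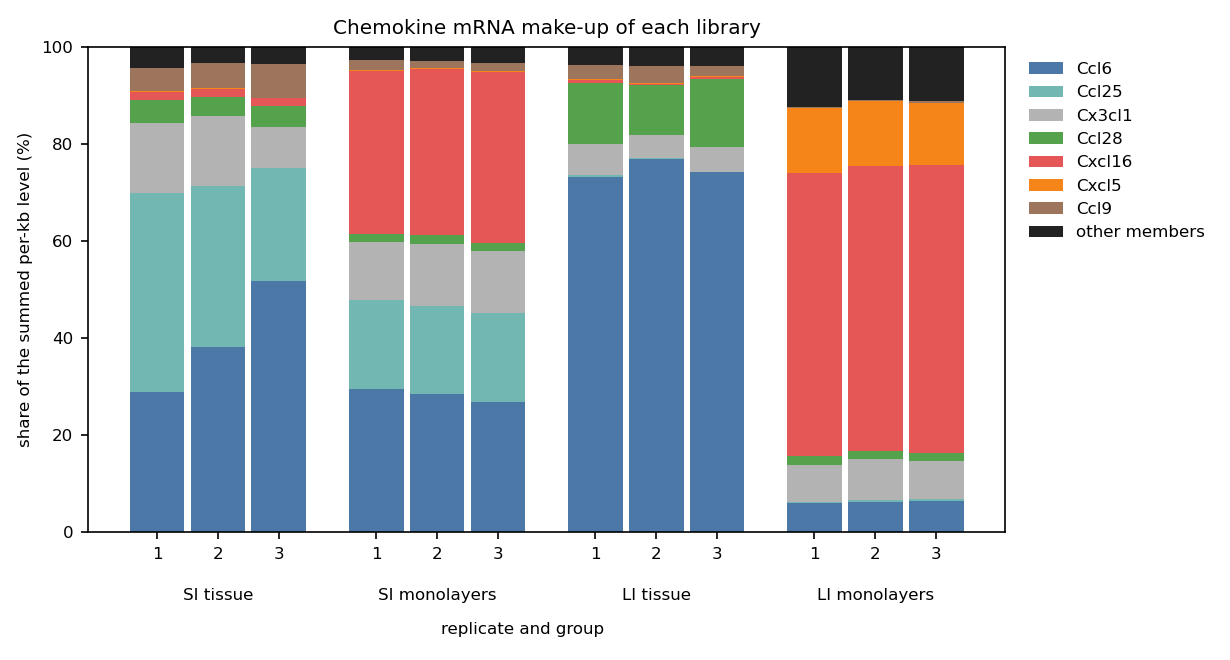
Stacked bars give, for each of the 12 libraries (replicates 1 to 3 of each group), the share in percent of the summed level per kb of exon that each chemokine gene held; members other than the 7 in the legend are pooled in black. Ccl6 (blue) was the largest share in LI tissue and Cxcl16 (red) in both kinds of monolayer, while in SI tissue the order of Ccl6 and Ccl25 changed between libraries.

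Between tissue and monolayers, chemokine genes moved in both directions in each region. In SI, 13 of the 24 tested members were called, with 4 higher and 9 lower in monolayers, where 26.1% of all tested genes were called (9.71% higher and 16.4% lower). In LI, 17 were called, with 8 higher and 9 lower, beside 38.0% of all genes (14.5% higher and 23.5% lower). A low gene enters the test through the group in which it is high, so these shares describe the tested members and are not support. The median absolute log2 fold change over the tested members was 1.24 in SI and 3.63 in LI, and over all tested genes 0.58 and 0.82. The libraries of both groups did not overlap for 15 tested members in SI and for 19 in LI, beside 66.4% and 73.1% of all tested genes. Cxcl2 and Cxcl16 were called higher in both regions, Ccl4, Ccl6, Ccl9, Ccl28, Cxcl11 and Xcl1 lower in both, and Cxcl10 higher in SI and lower in LI. The difference between the SI and the LI change (the interaction of region and preparation) was itself called for 14 members, with 5 higher and 9 lower, beside 20.0% of all tested genes (11.4% higher and 8.51% lower).

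**Figure D2:**
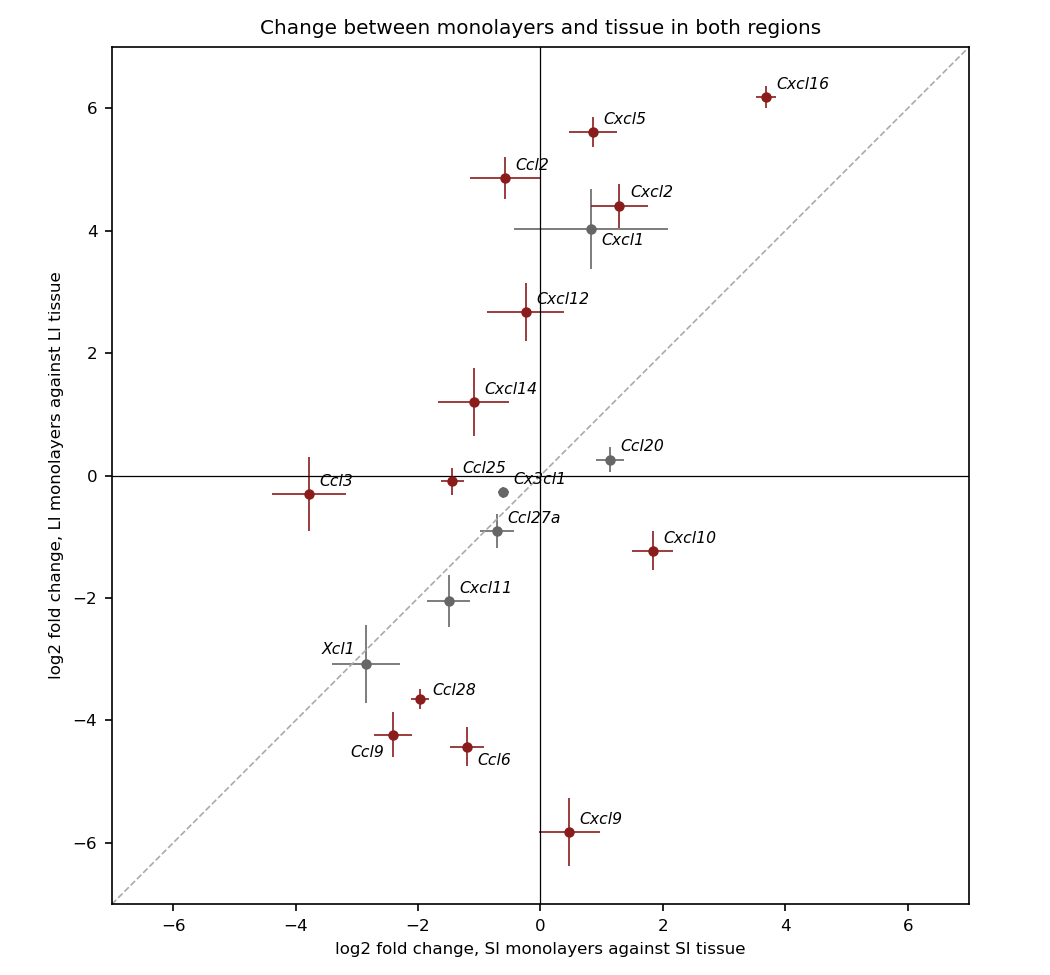
Each point is a chemokine gene, with its log2 fold change between monolayers and tissue in SI on the horizontal axis and in LI on the vertical axis; bars are SE and the dashed line marks equal change. Dark red marks genes whose SI and LI changes were called different; Cxcl16 changed by 3.68 and 6.18, and Ccl4, Ccl7, Ccl8, Ccl24 and Cxcl3 are not drawn because at least 1 of their groups held 3 counts or fewer.

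Among the CXCR2 ligands, which act on neutrophils, Cxcl1, Cxcl2, Cxcl3 and Cxcl5 were all called higher in LI monolayers than in LI tissue, and of these only Cxcl2 was also called higher in SI monolayers. Cxcl5, the highest of them per kb, had 57.3, 47.6 and 81.2 normalized counts in LI tissue and 2995, 2975 and 2852 in LI monolayers. Its values were 30.6, 22.9 and 5.87 in SI tissue and 27.8, 39.2 and 34.7 in SI monolayers. The LI groups were thus far apart while the SI groups overlapped. The log2 fold change of Cxcl5 was 5.61 in LI (SE 0.25, edgeR adjusted p = 5.83e-10), a 48.7-fold difference, and 0.86 in SI (SE 0.39, adjusted p = 0.0795). The SI change passed the threshold without SI tissue replicate 1 (log2 fold change 1.29, adjusted p = 0.0162). The difference between both changes was -4.75 (SE 0.52, adjusted p = 1.15e-05).

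Cxcl1, a mouse counterpart of the human GRO chemokines, had 9.40, 69.6 and 10.7 normalized counts in LI tissue and 519, 476 and 429 in LI monolayers. In SI it stayed near the limit of detection, with 2.35, 0 and 7.82 in tissue and 5.76, 7.12 and 5.47 in monolayers. LI tissue replicate 2 stood above the other LI tissue libraries but below every LI monolayer library. The log2 fold change of Cxcl1 in LI was 4.03 (SE 0.65, edgeR adjusted p = 2.20e-04), and 5.59 without LI tissue replicate 2. In SI it was 0.82 (SE 1.26, adjusted p = 0.605). The difference between these changes was not called (-3.21, SE 1.59, adjusted p = 0.129) but was without LI tissue replicate 2 (-4.77, adjusted p = 3.59e-04) and with DESeq2 (-3.18, adjusted p = 0.0382). The same LI tissue library was also highest of its group in Cxcr2 (22.0 normalized counts against 7.52 and 1.79), Pdgfra (47.6 against 31.0 and 8.93) and Col3a1 (987 against 749.9 and 390.1). Other markers did not follow. Ly6g was lowest in that library (5405 against 8466 and 8433). Dcn, Pdgfrb, Acta2 and Myh11 were highest in LI tissue replicate 1, and Col1a1 in replicate 3. The part of these markers in the Cxcl1 values was not tested.

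Cxcl2, which shares the same receptor, had 9.40, 34.8 and 23.2 normalized counts in LI tissue and 535, 467 and 401 in LI monolayers. The SI values were 11.8, 6.25 and 9.78 in tissue and 26.9, 12.5 and 27.4 in monolayers. Monolayers were above tissue in both regions, by far less in SI. For Cxcl2 the log2 fold change was 4.41 in LI (SE 0.36, edgeR adjusted p = 1.70e-08) and 1.29 in SI (SE 0.46, adjusted p = 0.0256), and the difference of -3.12 was called (SE 0.62, adjusted p = 6.47e-04). The SI call of Cxcl2 was lost without SI tissue replicate 2 (adjusted p = 0.0976), SI tissue replicate 3 (0.0542), SI monolayers replicate 1 (0.0728) or SI monolayers replicate 3 (0.0785).

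Cxcl3 was near 0 in 3 of the groups, with 2 counts summed over SI tissue, 4 over SI monolayers and 2 over LI tissue, and had 268, 231 and 209 normalized counts in LI monolayers. All LI monolayer libraries were thus apart from all others. The ratio of LI monolayers to LI tissue was 387 (95% counting interval 107 to 3204, and a lower bound of 69.0 with counts halved), with an edgeR adjusted p of 3.43e-08. The interaction of Cxcl3 (-7.64, SE 2.44, adjusted p = 0.0177) rested on the few SI counts and had an adjusted p of 0.965 without SI tissue replicate 2. It was -7.03 and -6.98 without SI monolayers replicate 1 or 2, -11.04 without replicate 3 (adjusted p = 0.00365), and -10.17 without LI tissue replicate 3 (adjusted p = 0.00894). Of its 50-base stretches, 4.24% occur in transcripts of other genes, mainly Cxcl2, so that few of its reads can be shared with them. The remaining member of this group, Cxcl15 or lungkine, was not tested and had counts in SI tissue replicate 1 (54) and LI tissue replicate 1 (4) only.

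**Figure D3:**
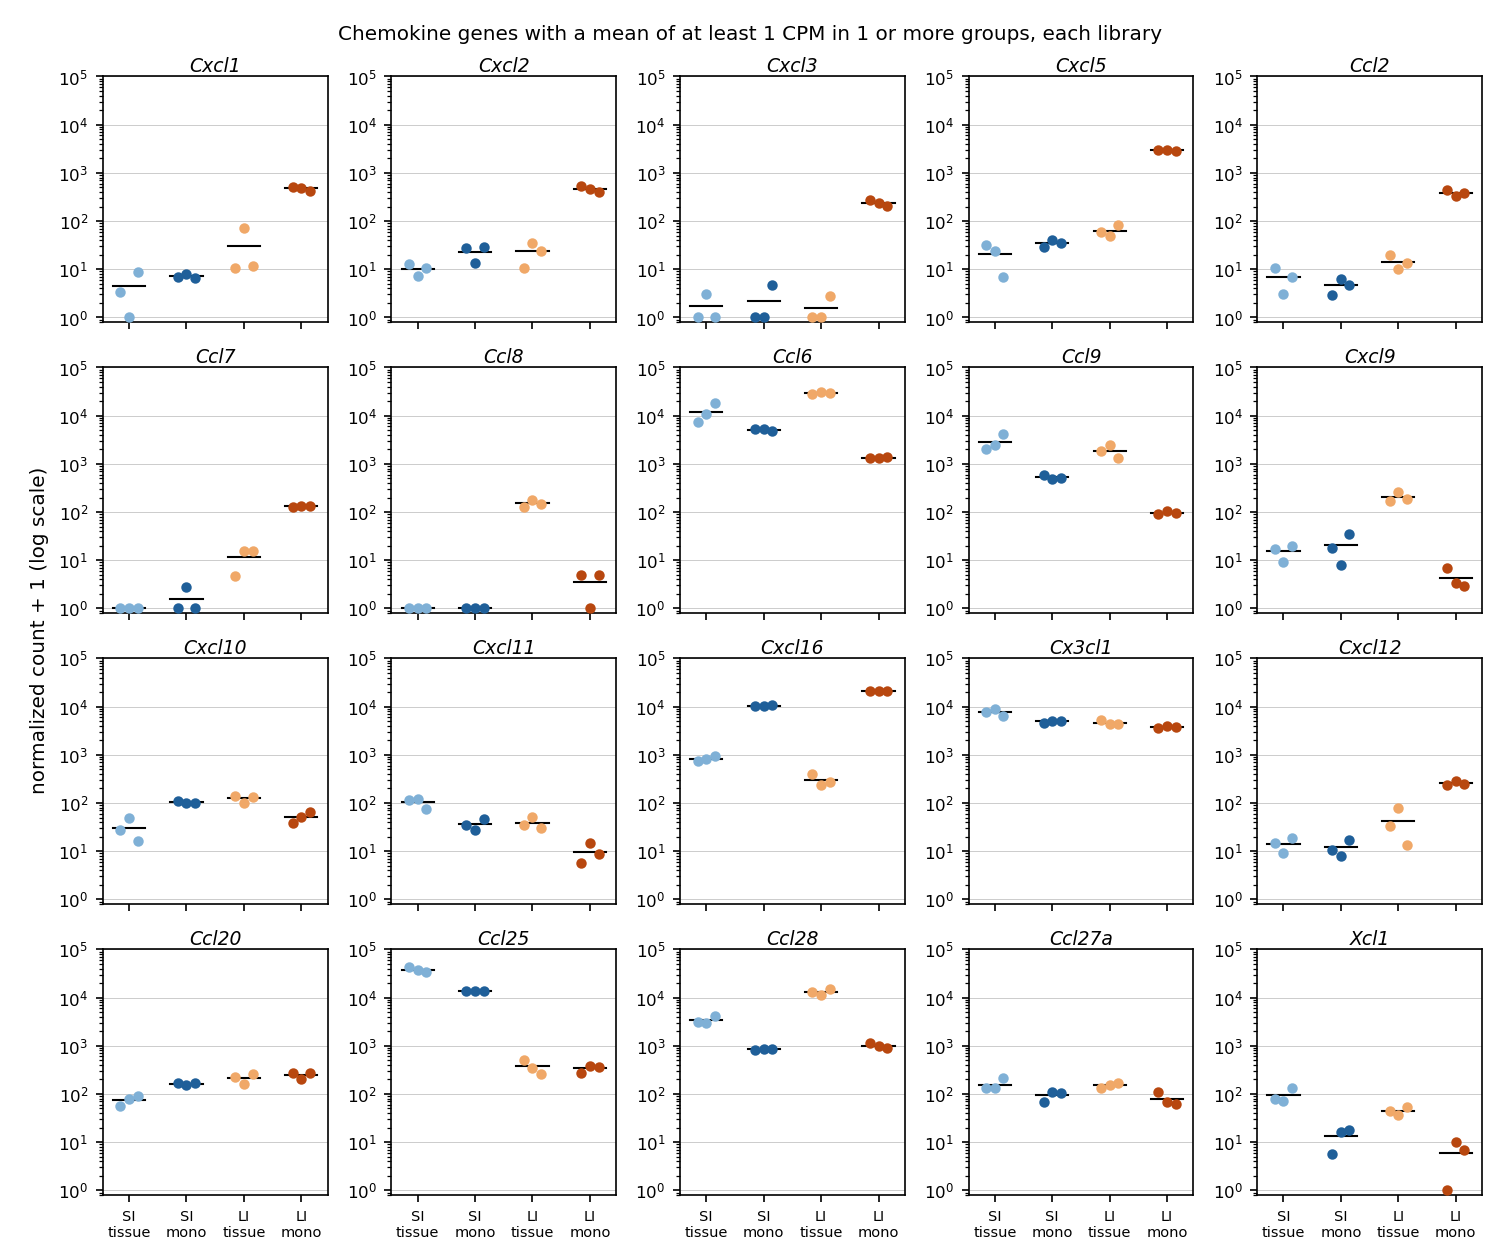
Each panel shows a chemokine gene with a mean of at least 1 CPM in at least 1 group; points are single libraries (normalized count + 1, log axis) and the line is the mean of the 3 libraries of a group. Cxcl1, Cxcl2, Cxcl3, Cxcl5, Ccl2, Ccl7 and Cxcl12 are highest in the 3 LI monolayer libraries, Cxcl16 is high in both kinds of monolayer, and Ccl25 is high in both SI groups.

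The monocyte-attracting CCR2 ligands Ccl2 and Ccl7, neighbours on the plus strand of chromosome 11 (chr11:82035571-82047525), were called higher in LI monolayers and not in SI monolayers. Ccl2 had 18.8, 9.15 and 12.5 normalized counts in LI tissue and 445, 326 and 376 in LI monolayers, against 9.41, 2.08 and 5.87 in SI tissue and 1.92, 5.34 and 3.65 in SI monolayers. LI monolayers stood alone, and the SI groups overlapped. The log2 fold change of Ccl2 was 4.86 in LI (SE 0.34, edgeR adjusted p = 1.79e-09) and -0.58 in SI (SE 0.57, adjusted p = 0.405), with a called difference of -5.44 (SE 0.70, adjusted p = 9.86e-06). Ccl7 had 3.76, 14.6 and 14.3 normalized counts in LI tissue, 127, 129.7 and 135 in LI monolayers, 0 in each SI tissue library and 2 counts in all in SI monolayers. Its log2 fold change in LI was 3.61 (SE 0.50, adjusted p = 1.52e-05). For the SI change of Ccl7, and so for its interaction, the counts were too few to tell. Mesenchymal markers did not move as one in LI monolayers: Pdgfra, which marks fibroblast-like cells, went from 31.0, 47.6 and 8.93 to 244, 314 and 223 normalized counts (log2 fold change 3.20), while Dcn, which encodes the matrix protein decorin, fell from 825, 657 and 674 to 231, 188 and 168 (-1.83). Of 8 tested endothelial markers, Cdh5, Kdr and Tie1 were called higher and 1 lower in LI monolayers, against 1 higher and 5 lower in SI monolayers, and the interaction was called lower in SI for 5. Cdh5, an endothelial cadherin, had 16.9, 16.5 and 1.79 normalized counts in LI tissue, 27.0, 52.8 and 41.5 in LI monolayers and no count in SI monolayers. Between both kinds of monolayer, 8 of 12 mesenchymal markers were called lower in SI than in LI and 0 higher. The part of these markers in the changes of Ccl2 and Ccl7 was not tested.

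Cxcl12, a ligand of CXCR4 made mainly by stromal cells, followed the same order of groups. It had 32.0, 78.7 and 12.5 normalized counts in LI tissue and 231, 285 and 247 in LI monolayers, with 14.1, 8.34 and 17.6 in SI tissue and 9.60, 7.12 and 16.4 in SI monolayers. The LI groups did not overlap and the SI groups did. The log2 fold change of Cxcl12 was 2.67 in LI (SE 0.47, edgeR adjusted p = 1.49e-04) and -0.24 in SI (SE 0.63, adjusted p = 0.763), and the difference of -2.92 was called (SE 0.78, adjusted p = 0.00723). Without LI tissue replicate 2, the highest of its group, the LI change was 3.56 and the difference -3.80. Pdgfra was likewise highest in LI monolayers and, within LI tissue, in replicate 2. Between LI tissue and LI monolayers, most mesenchymal markers did not follow Pdgfra. Of 12, 2 were called higher in LI monolayers, Pdgfra included, and 5 lower. Between regions, 8 of the 12 were called lower in SI than in LI and 0 higher, in monolayers and likewise in tissue. Within LI tissue, Dcn and Pdgfrb were highest in replicate 1. The part of these markers in the Cxcl12 result was not tested.

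Cxcl16 rose in the monolayers of both regions. It encodes a transmembrane chemokine that can be shed and binds CXCR6 on T cells. In SI it went from 736, 808 and 964 normalized counts in tissue to 10203, 10461 and 10822 in monolayers. In LI it went from 401, 235 and 275 to 21216, 21041 and 21431. All monolayer libraries thus lay far above all tissue libraries. Cxcl16 changed by 3.68 on the log2 scale in SI (SE 0.16, edgeR adjusted p = 7.91e-09), or 12.8-fold, and 6.18 in LI (SE 0.18, adjusted p = 1.48e-10), or 72.3-fold. The change was smaller in SI by 2.49 on the log2 scale (interaction -2.49, SE 0.22, adjusted p = 5.34e-06). An exon of Zmynd15 on the opposite strand overlaps Cxcl16; Zmynd15 had only 10.4 to 30.4 normalized counts in tissue and 117 to 218 in monolayers, and whether reads were counted by strand is not given in the sources used here. A list of 8 genes held proteases and peptidases, Adam10 and Adam17 included, and the heparan sulphate carriers Sdc1 and Sdc4. Of these, 1 was called higher (Sdc1) and 1 lower in SI monolayers, and 2 higher and 1 lower in LI monolayers. Dpp4, a peptidase that trims several chemokines, was lower in both (log2 fold change -2.72 in SI and -2.20 in LI), Sdc1, a heparan sulphate carrier, was higher in SI (1.57), and the protease gene Mmp9 was higher in LI (2.89, from 9.40, 9.15 and 12.5 to 100.1, 71.2 and 53.4 normalized counts).

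Cx3cl1, the other membrane-anchored member and the ligand of CX3CR1, was the steadiest of the abundant members. It had 7898, 8753 and 6481 normalized counts in SI tissue and 4656, 5075 and 5097 in SI monolayers. In LI it had 5257, 4304 and 4452 in tissue and 3597, 3902 and 3734 in monolayers. The monolayers were below tissue in each region without overlap. The log2 fold changes, -0.61 in SI (SE 0.09, edgeR adjusted p = 6.12e-05) and -0.27 in LI (SE 0.09, adjusted p = 0.0191), were under the size needed for a call.

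Ccl25, the ligand of CCR9 and a known mark of small intestinal epithelium, was a gene of the SI in both preparations. It had 42229, 38195 and 34079.9 normalized counts in SI tissue and 13711, 13752 and 13813 in SI monolayers, but only 505, 349 and 259 in LI tissue and 271, 388 and 357 in LI monolayers. SI stood far above LI in both preparations, and within SI the monolayers lay below tissue. Ccl25 was 106-fold higher in SI tissue than in LI tissue (log2 fold change 6.73, SE 0.25, edgeR adjusted p = 1.18e-08) and 41.6-fold higher in SI monolayers than in LI monolayers (5.38, SE 0.23, adjusted p = 4.69e-08). It fell by 1.44 on the log2 scale in SI monolayers (SE 0.19, adjusted p = 1.28e-04), and its LI change was -0.09 (SE 0.22, adjusted p = 0.749); the interaction of -1.35 was called (SE 0.29, adjusted p = 0.00417). Exons of Elavl1 on the opposite strand overlap Ccl25, and Elavl1 had 1964 to 4931 normalized counts over all libraries.

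Ccl28, which acts on CCR10-bearing plasma cells, was by contrast higher in LI tissue. It had 3117, 2946 and 4187 normalized counts in SI tissue, 12849.8, 11324 and 15198 in LI tissue, 826, 876 and 853 in SI monolayers and 1115, 1001 and 912 in LI monolayers. It fell in the monolayers of both regions, by 1.97 in SI (SE 0.15, edgeR adjusted p = 9.55e-07) and by 3.65 in LI (SE 0.16, adjusted p = 4.28e-09) on the log2 scale, and the difference of 1.68 was called (SE 0.21, adjusted p = 8.59e-05). The 3.73-fold distance between LI and SI tissue (log2 fold change -1.90, SE 0.15, adjusted p = 1.27e-06) was reduced to 1.16-fold in monolayers, which was not called (-0.22, SE 0.15, adjusted p = 0.280).

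Ccl20, the ligand of CCR6 from follicle-associated epithelium, had 56.5, 77.1 and 91.9 normalized counts in SI tissue, 169, 149.6 and 168 in SI monolayers, 226, 159 and 257 in LI tissue and 273, 199.7 and 271 in LI monolayers. SI tissue was the lowest group, and the LI groups overlapped. Ccl20 changed by 1.13 on the log2 scale in SI (SE 0.23, edgeR adjusted p = 4.22e-04) and 0.26 in LI (SE 0.21, adjusted p = 0.289). The SI value fell just under the size for a call without SI tissue replicate 1 (0.97, adjusted p = 0.00250). The interaction of 0.87 missed the size for a call (SE 0.31, adjusted p = 0.0299) and reached it, with values up to 1.06, without SI tissue replicate 3, SI monolayers replicate 2, LI tissue replicate 2, or LI monolayers replicate 1 or 3. Of 7 tested markers of follicle-associated epithelium, 1 was called higher in SI monolayers (Anxa5, 3.28) and 3 lower (Sox8, Spib at -3.92 and Tnfrsf11a at -1.42), with a list median of 0.26, so that they did not move as one. Ccl27a, a skin-associated CCR10 ligand, had 129, 130.3 and 209 normalized counts in SI tissue, 67.2, 108 and 105 in SI monolayers, 135, 155 and 171 in LI tissue and 108, 66.6 and 62.3 in LI monolayers. It was lower in monolayers without overlap, but its log2 fold changes of -0.71 and -0.91 were not called, and the LI change reached the size for a call with upper quartile scaling (-1.03) and without LI tissue replicate 1 or LI monolayers replicate 1 (-1.28). Of its 50-base stretches, 45.0% occur in other genes, and an exon of Il11ra1 lies on the opposite strand (486 to 832 normalized counts in tissue), so that its values are uncertain.

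The macrophage-type CCR1 ligands Ccl6 and Ccl9, adjacent on the minus strand of chromosome 11 (chr11:83572919-83593087), fell in monolayers of both regions. Ccl6 had 7222, 10639.9 and 18233 normalized counts in SI tissue, 5316, 5161 and 4915 in SI monolayers, 27555, 31662 and 29659 in LI tissue and 1296, 1327 and 1382 in LI monolayers. The SI tissue libraries were spread over the widest range, and no groups overlapped. Ccl6 fell by 1.20 in SI (SE 0.28, edgeR adjusted p = 0.00540) and by 4.43 in LI (SE 0.32, adjusted p = 1.64e-06) on the log2 scale, and the difference of 3.23 was called (SE 0.41, adjusted p = 1.98e-04). The SI call of Ccl6 was lost without SI tissue replicate 3 (-0.76, adjusted p = 7.24e-04) and when only the SI groups were fitted (-1.17, adjusted p = 0.0574). Ccl6 was highest in the SI tissue library that was also highest in the Paneth cell genes Lyz1 (84331, 175374 and 359996 normalized counts) and Ang4 (65586, 117467 and 297988). In SI monolayers Lyz1 changed by 0.00 and Ang4 by -3.37 on the log2 scale. In LI tissue, where Ccl6 was highest, Lyz1 had 501 to 1715 and Ang4 28064 to 62206 normalized counts. The part of these genes in the Ccl6 result was not tested. Ccl9 showed the same order within SI tissue with 1990.1, 2434 and 4186, and had 597, 477 and 514 in SI monolayers, 1886, 2412 and 1307 in LI tissue and 90.5, 106 and 92.9 in LI monolayers. It fell by 2.41 in SI (SE 0.31, adjusted p = 1.11e-04) and fell by 4.23 in LI (SE 0.37, adjusted p = 4.26e-06), with a called difference of 1.82 (SE 0.47, adjusted p = 0.0109). Of 11 tested myeloid markers, 5 were called lower and 3 higher in SI monolayers, and 7 lower and 2 higher in LI monolayers. Among them, C1qa, which encodes a complement subunit, was at 161 to 236 normalized counts in LI tissue against 13.8 to 21.7 in its monolayers. Mrc1, which encodes the mannose receptor, rose in both regions (from 103–201 to 4330.2–5233 in LI). The part of these markers in the Ccl6 and Ccl9 results was not tested.

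Ccl8, a monocyte-attracting chemokine, was found in LI tissue and hardly elsewhere. It had 126, 179 and 146 normalized counts in LI tissue, 3.85, 0 and 3.95 in LI monolayers, and no count in any of the 6 SI libraries. LI tissue thus stood apart from all other groups. With the SI tissue sum set at the limit of 3 counts over the group, Ccl8 was at least 146-fold higher in LI tissue than in SI tissue (edgeR adjusted p = 9.41e-07). In LI it fell by 5.69 on the log2 scale in monolayers (SE 0.56, adjusted p = 1.73e-06). Between both kinds of monolayer Ccl8 was called (adjusted p = 0.0197), but on 8 counts against 0, and the call was lost with counts halved (0.0501) and without LI monolayers replicate 1 (0.0600) or 3 (0.0603).

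Ccl3 and Ccl4, which encode macrophage inflammatory proteins and lie side by side on chromosome 11 (chr11:83647844-83664683), stayed under 1 CPM in every group, with at most 81 counts in a library. Ccl3 went from 67.0, 38.6 and 79.2 normalized counts in SI tissue to 1.92, 1.78 and 9.12 in SI monolayers. Ccl4 went from 77.6, 35.4 and 47.9 to 3.84, 12.5 and 10.9. Both fell in SI without overlap, with log2 fold changes of -3.78 for Ccl3 (SE 0.60, edgeR adjusted p = 4.75e-05) and -2.50 for Ccl4 (SE 0.61, adjusted p = 0.00208). Without SI monolayers replicate 3 the value of Ccl3 was -4.90. In LI tissue both were lower, at 9.40, 12.8 and 8.93 for Ccl3 and 5.64, 14.6 and 17.9 for Ccl4. Ccl3 did not pass the test in LI (-0.30, SE 0.60, adjusted p = 0.671) and its interaction was called (-3.47, SE 0.85, adjusted p = 0.00336; -4.53 without SI monolayers replicate 3). Ccl4 was called lower in LI monolayers, where 2 counts remained (ratio of LI tissue to monolayers 18.7, 95% counting interval 4.87 to 159.8, and a lower bound of 3.01 with counts halved). Xcl1, or lymphotactin, which is made mainly by T and NK cells, had 77.6, 71.9 and 129 normalized counts in SI tissue, 4.80, 15.1 and 17.3 in SI monolayers, 42.3, 35.7 and 51.8 in LI tissue and 0, 9.18 and 5.93 in LI monolayers. It fell by 2.85 in SI (SE 0.55, adjusted p = 3.13e-04) and fell by 3.08 in LI (SE 0.64, adjusted p = 4.54e-04); without LI monolayers replicate 2 the LI value was -3.85. Ccl3, Ccl4 and Xcl1 in SI, and Ccl4 and Xcl1 in LI, fell beside the lymphocyte markers, of which Cd3e went from 462–765 to 21.9–31.2 normalized counts for SI, and LI tissue had 102–122 against 1.93–10.3 in monolayers, and the part of those cells was not tested. An exon of Gm20743 overlaps Xcl1 on the opposite strand, with 3.57 to 38.1 normalized counts in tissue and 0 to 2.67 in monolayers.

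The CXCR3 ligands, known as interferon-induced attractants of activated T cells, did not move as a group. Cxcl9 had 168, 264 and 187 normalized counts in LI tissue and 5.78, 2.30 and 1.98 in LI monolayers, against 16.5, 8.34 and 18.6 in SI tissue and 17.3, 7.12 and 34.7 in SI monolayers. It was high in LI tissue only. Cxcl9 fell by 5.82 in LI (SE 0.56, edgeR adjusted p = 1.04e-07) on the log2 scale, its SI change was 0.47 (SE 0.50, adjusted p = 0.436), and the difference of 6.30 was called (SE 0.76, adjusted p = 5.45e-06). Without LI monolayers replicate 1 the LI change was -6.54 and the difference 7.05, and without SI monolayers replicate 3 the difference was 5.71. Cxcl10 went in opposite directions, from 25.9, 48.0 and 15.6 to 110.4, 99.7 and 101 in SI and from 140.0, 98.9 and 133 to 37.5, 50.5 and 65.2 in LI. The log2 fold changes were 1.83 (SE 0.34, adjusted p = 2.01e-04) and -1.23 (SE 0.32, adjusted p = 0.00286), with a difference of 3.07 (SE 0.47, adjusted p = 5.63e-05). Cxcl11 was lower in monolayers of both regions, at 115, 118 and 75.3 in SI tissue and 34.6, 26.7 and 44.7 in SI monolayers, and at 33.8, 50.3 and 28.6 in LI tissue and 4.81, 13.8 and 7.91 in LI monolayers. It fell by 1.50 (SE 0.35, adjusted p = 0.00162) and by 2.05 (SE 0.42, adjusted p = 3.98e-04). Of these genes, Cxcl10 had a match to the interferon-stimulated response element and to kappaB, as shown above. Cxcl9 had a match to neither, and Cxcl11 had no promoter entry to search. Art3 overlaps Cxcl10 on the opposite strand and had at most 11.8 normalized counts in any library.

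Of the genes of interferon signalling, 1 of 14 was called higher and 7 lower in SI monolayers, and 1 higher and 6 lower in LI monolayers. Irf8, a transcription factor, went from 13113, 20044 and 13514 to 3564, 3518 and 3649 normalized counts in SI (log2 fold change -2.09) and from 15021, 14033 and 12566 to 695, 686 and 632 in LI (-4.32). Irf1 was lower in both regions (-1.66 in SI and -1.85 in LI), and Ifnar2, a subunit of the type I receptor, rose by 2.06 in LI. Of 32 genes of the NF-kB pathway, 7 were called higher and 3 lower in SI monolayers, and 9 higher and 4 lower in LI monolayers. Tnf was higher in both, at 969, 1045 and 1020.4 against 72.9, 90.7 and 119 normalized counts in SI (log2 fold change 3.44) and at 2659, 2525 and 2490.2 against 398, 312 and 215 in LI (3.10). Tnf, Rel, Rela, Nfkb2, Tlr4 and Tnfaip3 were called higher in both regions. Il1a was called higher in LI monolayers (90.5, 108 and 91.9 against 8.46, 1.83 and 3.57, log2 fold change 4.41), and Il1b, Traf1 and Il17rc were called lower in both regions. Il1b changed by -3.98 in SI and -4.55 in LI, and Traf1, an adaptor of TNF receptors, by -3.68 and -2.10. Chemokine mRNAs are known targets of regulated decay, and of 8 genes of that list 2 were called higher in SI and 4 in LI, with 0 lower in either. Arid5a, which is known to stabilise inflammatory mRNAs, changed by 1.98 and 3.01, and Zfp36l1, which is known to promote decay, by 1.46 and 2.35. Whether any of these genes acts on the chemokine genes was not tested. For scale, the median log2 fold change was 0.40 in SI and 0.54 in LI over the NF-kB list, -0.88 and -0.47 over the interferon list and 0.45 and 0.99 over the decay list, beside -0.05 in each region over all tested genes.

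The receptors for these ligands were found mainly in tissue. Of 18 chemokine receptor genes, 13 were tested, and 12 of them were called lower in the monolayers of each region and 0 higher, with Cx3cr1 not called in SI and Ccr7 not in LI. The summed level of the 18 genes went from 1063–1592 to 118–160.5 normalized counts for SI, and LI tissue had 759–838 against 90.7–127 in monolayers. Ccr9, the receptor of CCL25, had 512, 625 and 348 in SI tissue, 38.4, 30.3 and 41.9 in SI monolayers and 27.5 to 50.7 in LI tissue. Cxcr6, the receptor of CXCL16, fell while Cxcl16 rose, from 278, 313 and 266 to 32.6, 23.1 and 23.7 in SI (log2 fold change -3.39, edgeR adjusted p = 6.26e-09) and from 79.9, 97.0 and 96.4 to 11.6, 11.5 and 5.93 in LI (-3.18, adjusted p = 3.97e-08). The log2 fold change was -3.97 for Cxcr4 in SI, and -5.09 for Ccr2 and -3.97 for Cxcr3 in LI. Cxcr2, the receptor of the CXCR2 ligands, had no count in SI tissue, 2 counts in each kind of monolayer and 7.52, 22.0 and 1.79 normalized counts in LI tissue. Of 5 atypical receptors, which take up chemokines without signalling through G proteins, 4 were tested; 4 were called lower in SI and 3 in LI. Ackr4, which takes up CCL25, changed by -3.48 and -3.63, and Ccrl2 by -2.41 and -2.78. The platelet chemokine Pf4 fell in LI (124, 104 and 119.6 to 9.63, 16.1 and 9.88 normalized counts), and Ppbp, a further CXCR2 ligand, was at 0 in LI tissue and at 27.0, 23.0 and 15.8 in LI monolayers.

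**Figure D4:**
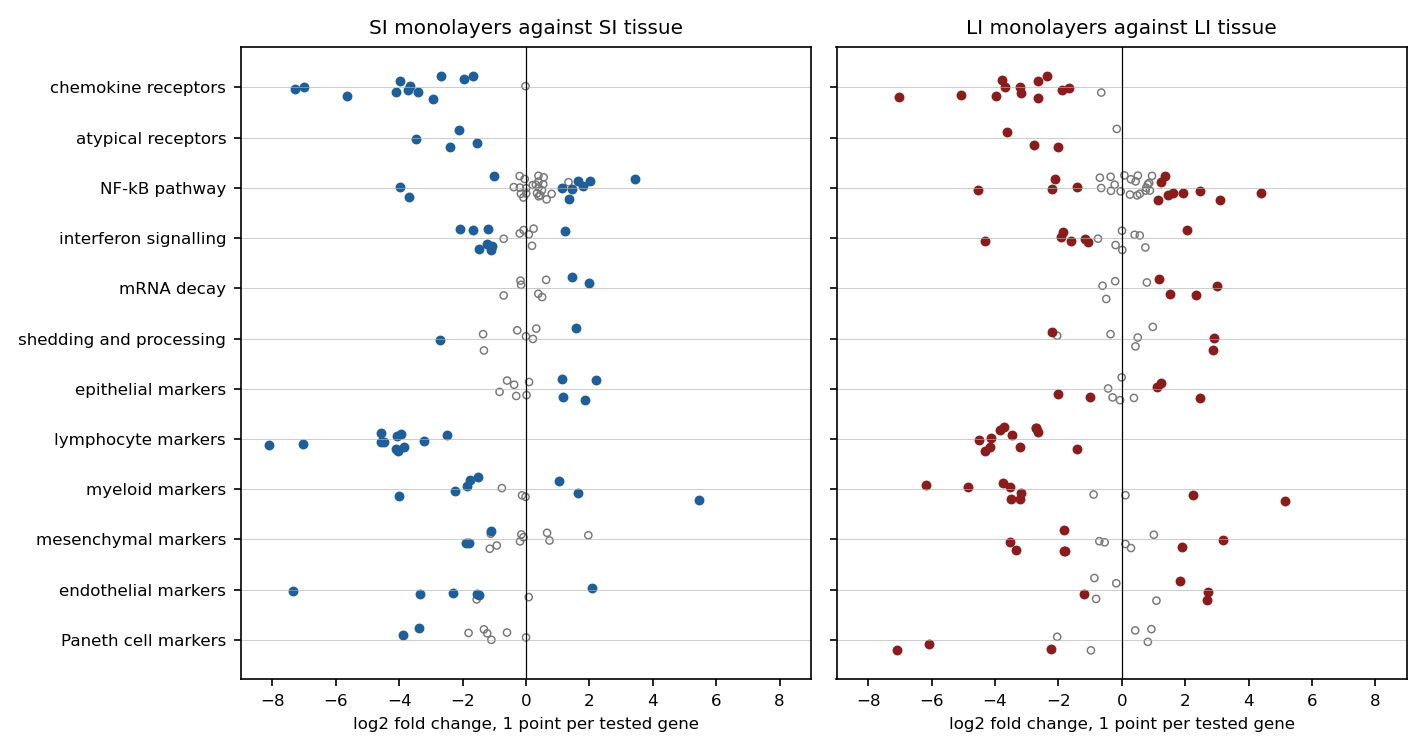
Each point is a tested gene of the list named on the left, at its log2 fold change between monolayers and tissue in SI (left) and LI (right); filled points were called and open points were not, and the vertical spread within a list has no meaning. Chemokine receptor genes lie between -7.30 and -0.01 in SI and between -7.02 and -0.65 in LI, beside the lymphocyte markers, while genes of the NF-kB pathway lie on both sides of 0.

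Between regions, chemokine genes differed in both directions. In tissue, 18 of 24 tested members were called, with 6 higher and 12 lower in SI, beside 22.7% of all tested genes (11.6% higher and 11.1% lower). Here and between monolayers below, a low gene can enter the test through a group outside the comparison, so these shares are not support either. The higher genes were Ccl3, Ccl4, Ccl24, Ccl25, Cxcl11 and Cxcl16, and the lower ones were Ccl2, Ccl6, Ccl7, Ccl8, Ccl20, Ccl28, Cxcl1, Cxcl2, Cxcl5, Cxcl9, Cxcl10 and Cxcl12. When only the tissue groups were fitted, 7 were called higher and 7 lower. Cxcl2 and Cxcl12 then lost their calls (edgeR adjusted p = 0.0885 and 0.0689). Ccl2, Ccl7 and Cxcl1 were not tested in that fit, since they passed the filter on low counts only through LI monolayers. Xcl1 was not called between tissues (1.14, SE 0.49, edgeR adjusted p = 0.0633) but was called higher in SI tissue in that fit (1.08, adjusted p = 0.0195), with DESeq2 (1.12, 0.0380), with counts halved (1.16, 0.0224) and without LI monolayers replicate 1 (1.07, 0.0325). The calls of Ccl2, Cxcl1, Cxcl2 and Cxcl12 each depended on single libraries. Ccl2 (log2 fold change -1.19, SE 0.46, edgeR adjusted p = 0.0397) was not called without SI tissue replicate 2 or 3 or LI tissue replicate 1 or 3, with adjusted p up to 0.172. Cxcl1 (-3.01, SE 0.99, adjusted p = 0.0249) was not called without SI tissue replicate 1 or 2 or LI tissue replicate 2, with values from -4.57 without SI tissue replicate 3 to -1.45 without LI tissue replicate 2. Cxcl2 (-1.24, SE 0.46, adjusted p = 0.0336) was lost without SI tissue replicate 2 or 3 or LI tissue replicate 2 or 3, and Cxcl12 (-1.56, SE 0.55, adjusted p = 0.0266) without SI tissue replicate 1 or 2 or LI tissue replicate 2, where it was -0.68. Ccl6 (-1.26, SE 0.28, adjusted p = 0.00459) was just under the size for a call without SI tissue replicate 1 (-0.99). With a replicate block, the adjusted p was 0.0564 for Cxcl2 and 0.0558 for Cxcl12.

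In monolayers, 16 of 24 tested members were called between regions, with 7 higher and 9 lower in SI, beside 21.2% of all tested genes (12.4% higher and 8.88% lower). Cxcl1, Cxcl2, Cxcl3, Cxcl5, Ccl2, Ccl7 and Cxcl12 were lower in SI monolayers. The log2 fold changes were -6.40 for Cxcl5 (SE 0.27, edgeR adjusted p = 1.00e-09), -6.63 for Ccl2 (SE 0.40, adjusted p = 9.56e-10), -6.22 for Cxcl1 (SE 0.78, adjusted p = 5.85e-05), -4.37 for Cxcl2 (SE 0.36, adjusted p = 5.30e-08) and -4.48 for Cxcl12 (SE 0.54, adjusted p = 7.42e-06). For Ccl7 the ratio of LI to SI monolayers was 203 (95% counting interval 55.8 to 1681, and a lower bound of 36.0 with counts halved), and both SI counts came from replicate 2. Ccl25, Ccl4, Ccl6, Ccl9, Cxcl9, Cxcl10 and Cxcl11 were higher in SI monolayers, by 1.97 for Ccl6 (SE 0.29, adjusted p = 4.31e-04), so that the order of the regions for Ccl6 was opposite to that in tissue. Cxcl9 and Cxcl10 were likewise lower in SI than in LI among tissues (-3.78 and -2.01) and higher in SI monolayers than in LI monolayers (2.51 and 1.05). The value of Cxcl10 in monolayers missed the threshold without LI monolayers replicate 1 (0.90, adjusted p = 0.0542), and that of Cxcl9 ranged from 1.85 without SI monolayers replicate 3 to 3.20 without LI monolayers replicate 1. Cxcl16 was 1.98-fold lower in SI monolayers, at a log2 fold change of -0.99 (SE 0.14, adjusted p = 1.70e-04), just under the size for a call, which DESeq2 (-1.02) and the fit with no filter on low counts (-1.02) reached. The libraries of both groups did not overlap for 17 tested members in tissue and for 19 in monolayers, beside 58.8% and 62.3% of all tested genes.

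The remaining members stayed under 1 CPM in every group. Ccl24, an eosinophil attractant, had 51.8, 54.2 and 23.5 normalized counts in SI tissue and at most 7.68 in any other library; it was called lower in SI monolayers (log2 fold change -4.01, SE 0.98, edgeR adjusted p = 0.00216), and changed by -8.43 without SI monolayers replicate 1, -3.39 without replicate 2 and -3.40 without replicate 3. Cxcl14, an epithelial chemokine, had 14.1, 60.5 and 26.4 in SI tissue, 21.1, 12.5 and 12.8 in SI monolayers, 30.1, 22.0 and 7.14 in LI tissue and 24.1, 47.1 and 60.3 in LI monolayers. Its tissue and monolayer libraries overlapped in each region, with log2 fold changes of -1.09 (adjusted p = 0.119) and 1.20 (adjusted p = 0.0717), while the difference of -2.29 was called (SE 0.81, adjusted p = 0.0299). That call was lost with a replicate block (adjusted p = 0.0514), without SI tissue replicate 2 (-1.57, adjusted p = 0.126), and without replicate 2 or 3 of SI monolayers, replicate 3 of LI tissue or replicate 2 or 3 of LI monolayers (adjusted p up to 0.105). In monolayers Cxcl14 was called lower in SI than in LI (-1.47, adjusted p = 0.0434), a call that was lost with a replicate block (0.0584) and without any SI replicate or LI replicate 2 or 3 (adjusted p up to 0.177). The change in SI was called without SI tissue replicate 1 (-1.45, adjusted p = 0.0413), and the change in LI without SI tissue replicate 1 (1.20, 0.0497) or LI tissue replicate 1 (1.62, 0.0408). The eotaxin Ccl11, the CCR4 ligands Ccl17 and Ccl22, the B cell chemokine Cxcl13, and Ccl1, Ccl12, Ccl27b, Cxcl15 and Cxcl17 did not pass the filter, with at most 54 counts in a library. Cxcl13, known from lymphoid follicles, had 6, 16 and 22 counts in LI tissue and at most 8 in any other library. Ccl19, Ccl21a, Ccl21b and Ccl26 had no count in any library, which allows up to 0.0394 to 0.0508 CPM. For Ccl21b all 50-base stretches of its transcript occur in other genes as well, for Ccl21a 71.6%, for Ccl19 52.0% and for Ccl27b 98.1%, and reads from such stretches may not have been counted, so that their low values do not show absence.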

How the data were processed

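RNA from 12 libraries in 4 groups of 3 was sequenced. Groups and replicate numbers were taken from the sample titles. Per the labels and the methods, the authors aligned paired-end reads to GRCm38 with STAR 2.7.9a, counted them on GENCODE genes with featureCounts 2.0.2 and normalized them with DESeq2 (listed as 3.13). The deposited counts are whole numbers per gene. The deposited normalized signal is the count divided by 1 size factor per library (0.850 to 1.12), not log transformed. The strand setting and the counting of mates are not given in the sources used here; 73.4% to 77.4% of the counts from 1 to 20 in a library were even, so that both mates of a pair may have been counted, and counting intervals may then be too narrow.

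Symbols were taken from gene IDs (55141 of 55487 named), and positions and exon lengths (the union of all annotated exons of a gene) from GENCODE M21 on GRCm38. Counts were filtered by filterByExpr, scaled by TMM and fitted with edgeR 4.0.16 (robust quasi-likelihood, R 4.3.3) in 1 model of 4 group means. The tagwise biological coefficient of variation had a median of 0.127. Monolayers were compared with tissue within each region, SI was compared with LI within each preparation, and the SI change minus the LI change was tested as an interaction, which made 5 comparisons. The fit was tested on simulated data. Fold changes against a group of 3 counts or fewer were replaced by ratios of counts with exact 95% intervals, or by a bound at 3 counts over the group. The alternatives were DESeq2 1.42.0, upper quartile scaling, no filter, at least 10 counts in at least 3 libraries, a call by the adjusted p alone, a fit of the compared groups alone, a replicate block, counts halved, and each library left out.

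Values in every library were given for members with a mean of at least 1 CPM in a group, other members were given by range, count or their values, and for each pathway list the 2 genes with the largest called change (mean of at least 1 CPM) were given; any other gene named beside a result was picked once its values were known. The value of 1 gene that this rule names is not reported here. The members and lists were chosen with earlier results of these data known. Stretches of 50 bases shared between genes were counted in GENCODE M21 transcripts.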

Additional observations from a re-analysis of the deposited data

Results flagged for a closer look

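For 14 members the change between tissue and monolayers differed between SI and LI by a test of the difference itself (edgeR interaction, adjusted over all tested genes). As the SI minus the LI log2 change, it was lower in SI for Ccl2 (-5.44), Ccl3 (-3.47), Ccl25 (-1.35), Cxcl2 (-3.12), Cxcl3 (-7.64), Cxcl5 (-4.75), Cxcl12 (-2.92), Cxcl14 (-2.29) and Cxcl16 (-2.49). It was higher in SI for Ccl6 (3.23), Ccl9 (1.82), Ccl28 (1.68), Cxcl9 (6.30) and Cxcl10 (3.07). Ccl2, Cxcl2, Cxcl3, Cxcl5, Cxcl12 and Cxcl16 have in common that they were called higher in LI monolayers. Ccl6, Ccl9 and Ccl28 fell in both regions and fell further in LI. Cxcl10 was the gene called in opposite directions. Cxcl3 is the value that rests on the fewest counts outside LI monolayers, with an adjusted p of 0.965 without SI tissue replicate 2. The call of Cxcl14 was lost with a replicate block (adjusted p = 0.0514) and without single libraries, such as SI tissue replicate 2 (0.126).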

How the results depend on the processing

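With no minimum fold change, the genes called over the whole table numbered 11674 in SI, 13445 in LI, 10558 between tissues, 10145 between monolayers and 9069 for the interaction (5110, 7442, 4446, 4159 and 3909 as reported). Fitting the tissue groups alone gave 7 instead of 12 chemokine genes lower and 7 instead of 6 higher in SI tissue. Of the lower genes, Cxcl2 and Cxcl12 lost their calls, whereas Ccl2, Ccl7 and Cxcl1 did not pass the filter on low counts in that fit. Without 1 library at a time, the chemokine genes called numbered 11 to 15 in SI (3 to 4 higher, 8 to 11 lower), 17 to 20 in LI (8 to 9 and 9 to 11), 15 to 20 between tissues (6 to 7 and 9 to 14), 15 to 18 between monolayers (6 to 8 and 8 to 11) and 13 to 16 for the interaction (5 to 6 and 8 to 11). Changes that were not called turned in sign for Ccl27a between tissues (0.00 with upper quartile scaling and with at least 10 counts in at least 3 libraries, and -0.21 to 0.19 over the fits without 1 library), and without single libraries, with ranges of -0.61 to 0.03 for Cxcl12, -2.73 to 3.51 for Cxcl3 and -0.19 to 0.91 for Cxcl9 in SI, -0.28 to 0.19 for Ccl25 in LI, -2.70 to 4.45 for Ccl24 between monolayers and -0.28 to 1.03 for the interaction of Xcl1; the cause was not tested. Upper quartile scaling moved the median of all genes in LI by -0.12 and in the other comparisons by -0.07 to 0.08. Whether replicate numbers pair the libraries is not given. Deviations of same-numbered libraries correlated at -0.31 to 0.07, but differently numbered libraries were not compared, so that this cannot settle it. The main fit treated all libraries as independent, although SI and LI libraries may share mice. The replicate block gave 5017, 7367, 4383, 4083 and 3807 genes over the whole table and changed, over the 24 tested members, the calls of Cxcl2 and Cxcl12 between tissues and of Cxcl14 between monolayers and for the interaction, and no other of the 116 values fitted. Depth limits the members under 1 CPM, where few counts decide a value.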
